A study of Mus musculus with 120 samples.

Results

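The IgLON family of the mouse comprises 5 cell adhesion genes, Lsamp, Ntm, Opcml, Negr1 and Iglon5. Of the 8961 windows of 1 kb that the study's authors called as differently methylated between App-NLGF and wild-type mice, 11 lay in these genes. Lsamp held 6 of them, Ntm 2, Negr1 2, Opcml 1 and Iglon5 none. The genes were grouped by family membership, and the windows were chosen by the authors' own values, an adjusted p under 0.1 and an absolute methylation difference of at least 10 percentage points. A window was counted for a gene if it overlapped the gene body in the RefSeq annotation of GRCm38 (mm10) or lay within 10 kb of it. Because the called differences selected these windows, the counts and differences below are descriptions without a test of their own.

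Whole-genome bisulfite sequencing was applied to hippocampus and blood of App-NLGF mice, labelled APP-nlgf, and of wild-type mice at postnatal weeks 3, 8 and 24. The labels give 120 libraries in 12 groups of 10, and each group holds 5 male and 5 female libraries. App-NLGF mice are a knock-in model in which the mouse App gene itself carries a humanised amyloid-beta segment with the Swedish, Iberian and Arctic mutations, so that every cell that uses App makes the altered protein from its normal promoter, and wild-type mice carry none of these changes. The authors compared the genotypes separately in each tissue at each age, adjusting for sex, and so obtained 6 lists of called windows. The labels name no strain. All differences are given as App-NLGF minus wild type in percentage points, an order read from the name of the comparison alone, so that every sign would turn if it were the other way round. Since no methylation level, coverage or library value entered the work, the depth and the spread between animals behind each difference are unknown and the tissues could not be checked against marker genes. Both tissues are mixtures of cells, and a shift in cell makeup cannot be told apart from a change of methylation within a cell type.

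IgLON proteins are small immunoglobulin-domain molecules held to the outer face of the neuronal membrane by a lipid anchor. They bind themselves and each other across and along membranes and are known for their part in neurite outgrowth, axon targeting and synapse formation, in hippocampus among other regions. DNA methylation inside long genes lies mostly at scattered CpG sites, whereas the CpG-rich starts of genes are usually unmethylated. Membership of the family says little about gene structure, since 4 members are very long and 1 is short. Lsamp spans 2197 kb and is the 4th longest of 227 coding genes of at least 500 kb. Opcml spans 1135 kb, Ntm 969 kb and Negr1 755 kb, whereas Iglon5 spans 17.3 kb.

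Lsamp, the limbic system-associated membrane protein, which marks limbic neurons and guides their axons, had windows in all 3 blood lists and in no hippocampus list (gene body chromosome 16, 39984254 to 42181679, plus strand). At week 3 the authors' deposited table gives -18.8 points at chr16:41285001-41286000 (adjusted p = 0.0263) and 17.8 points at chr16:41716001-41717000 (adjusted p = 0.0120). These 2 windows of one age therefore stood on opposite sides, lower and higher in App-NLGF blood. At week 8 the authors' deposited table gives -14.3 points at chr16:40080001-40081000 (adjusted p = 0.0266), -30.2 points at chr16:40682001-40683000 (adjusted p = 0.0724) and 10.9 points at chr16:40784001-40785000 (adjusted p = 0.0868). The single week 24 window, at chr16:41422001-41423000, was higher in App-NLGF by 13.8 points in the authors' deposited table (adjusted p = 0.00136). Over the ages, 3 windows of Lsamp were higher and 3 lower, so its called windows had no common direction in blood.

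The Lsamp windows differed in how the size of the difference and the strength of the authors' test went together. The window of -30.2 points ranked 13th by absolute difference among the 4526 windows of blood week 8 but 3830th by p, so that 84.6% of that list had a p as small or smaller. Conversely, the week 24 window ranked 292nd of 567 by absolute difference and 1st by p, and 3 windows shared its adjusted p, the lowest of blood week 24. At week 3 the 2 ranks lay closer together. The lower window ranked 271st by absolute difference and 287th by p among 1153 windows, and the higher window ranked 330th and 126th. What coverage lay behind these ranks is not known from the values used here.

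**Figure D1:**
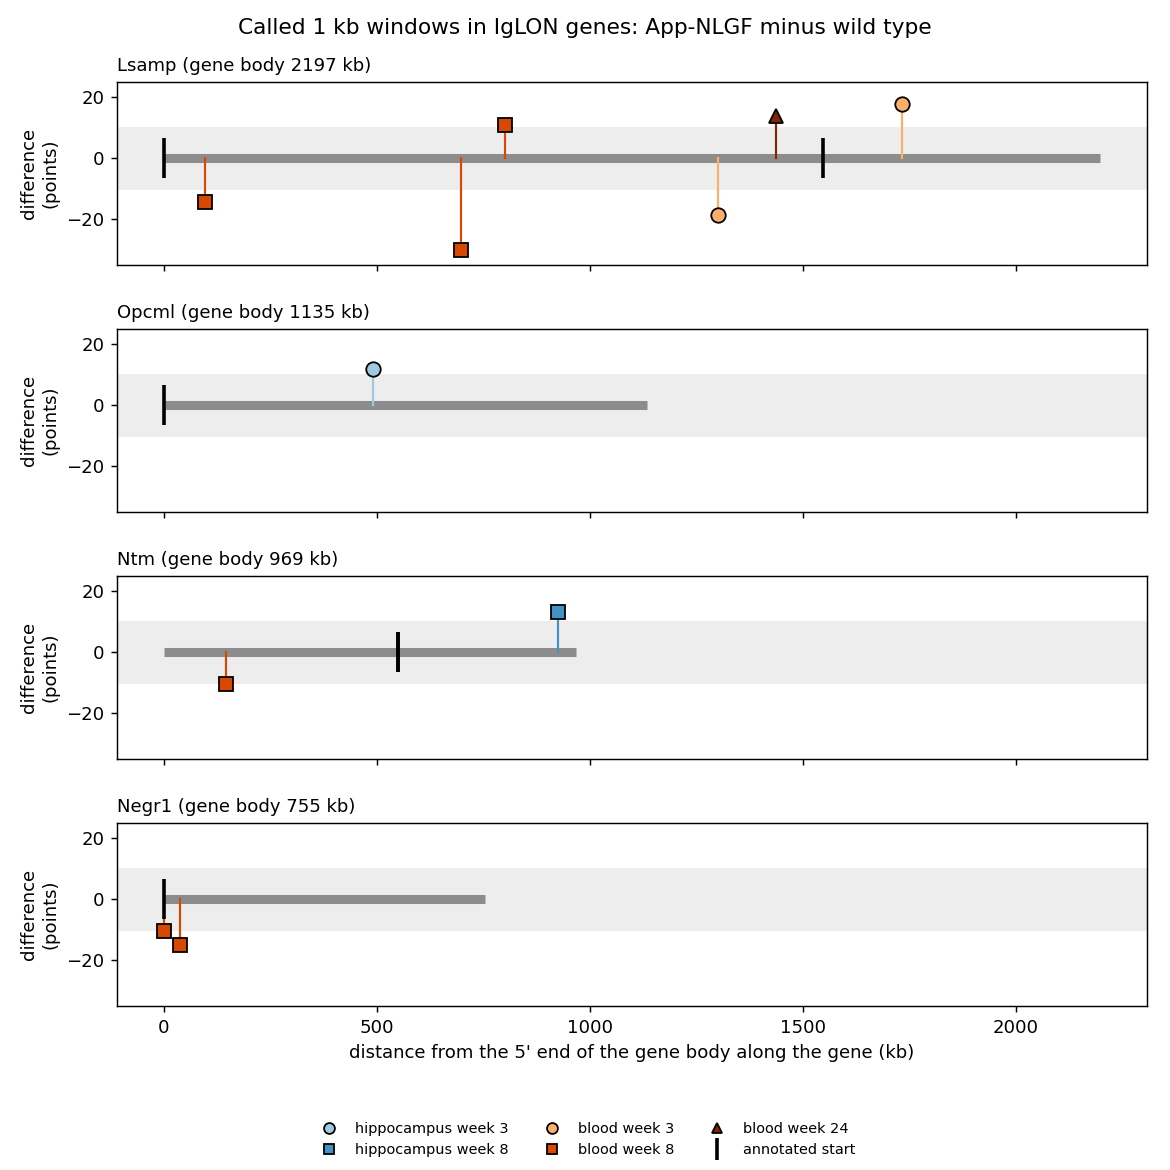
Called windows along Lsamp, Opcml, Ntm and Negr1. The horizontal axis gives the distance in kb from the 5' end of the gene body along the direction of transcription, and the vertical axis the methylation difference in percentage points, App-NLGF minus wild type. Grey bars are gene bodies, black ticks are starts in the RefSeq promoter table, and the grey band holds differences under 10 points, which the lists leave out. The 6 windows of Lsamp are all from blood and lie on both sides of 0, 3 above and 3 below, whereas both Negr1 windows lie below 0 in the first 38 kb of the gene.

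By position, the Lsamp windows were spread over the gene rather than gathered at a start. The RefSeq promoter table gives Lsamp 2 starts on the plus strand that lie 1548 kb apart, at positions 39984364 and 41532826. Of the 6 windows 5 lay between these starts and 1 after the second. The nearest to the first start was the week 8 window of -14.3 points, 96.1 kb downstream, and the nearest to the second was the week 24 window of 13.8 points, 110 kb upstream, both from the authors' deposited table. Gaps between neighbouring windows ran from 101 to 601 kb, and the shortest separated the lower window of -30.2 points from the higher window of 10.9 points, both of blood week 8 in the authors' deposited table. The window of -30.2 points also lay 9.73 kb from Gm52230, a long noncoding RNA gene inside Lsamp, and no other Lsamp window was within 10 kb of a second annotated gene. Lsamp shares chromosome 16 with App, the gene altered in the knock-in, and its end lies 42.8 Mb before the start of App.

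Negr1, the neuronal growth regulator also called Kilon, whose human counterpart is a known body weight locus, had both of its windows in blood at week 8, and both were lower in App-NLGF (gene body chromosome 3, 156561790 to 157316464, plus strand). The authors' deposited table gives -10.3 points at chr3:156562001-156563000 (adjusted p = 0.0509) and -14.99 points at chr3:156599001-156600000 (adjusted p = 0.0825). The first of these is the only window of the family within 1 kb of an annotated start. It covers the bases from 207 to 1206 downstream of the start of Negr1 at position 156561794, inside the gene, and 4930570G19Rik, a long noncoding RNA gene on the minus strand, lies head to head with Negr1, its 5′ end 48 bp before that start. The second window lay 37.7 kb downstream, and 36 kb separated them.

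Starts were common places for called windows in that list. Of the 4526 windows of blood week 8, 1757 (38.8%) lay within 1 kb of a start in the RefSeq promoter table, and 99.6% of these were lower in App-NLGF, with a median difference of -11.2 points. In the family 1 of 6 windows of that list lay there, the one at Negr1, with -10.3 points in the authors' deposited table. In the other 5 lists the share at a start was 2.47% to 5.96%, and none of the 5 family windows in them lay at one.

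The 250 bases upstream of the Negr1 start are shown because a called window begins just downstream of them, and those of both Lsamp starts because Lsamp held most windows and none near a start. Sequences are from RefSeq (GRCm38.p6), plus strand, 5′ to 3′, with each CG dinucleotide in capitals. They lie at chr3:156561544-156561793, chr16:39984114-39984363 and chr16:41532576-41532825.
Negr1 start: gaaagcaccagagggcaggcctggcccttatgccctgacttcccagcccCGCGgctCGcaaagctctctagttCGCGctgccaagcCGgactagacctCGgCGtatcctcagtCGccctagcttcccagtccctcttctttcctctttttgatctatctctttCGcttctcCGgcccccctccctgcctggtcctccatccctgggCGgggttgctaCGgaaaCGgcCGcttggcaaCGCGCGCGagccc
Lsamp first start: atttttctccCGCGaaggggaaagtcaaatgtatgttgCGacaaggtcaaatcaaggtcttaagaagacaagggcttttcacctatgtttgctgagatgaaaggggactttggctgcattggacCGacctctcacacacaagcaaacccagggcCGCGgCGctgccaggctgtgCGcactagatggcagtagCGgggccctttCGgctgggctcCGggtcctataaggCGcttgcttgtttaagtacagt
Lsamp second start: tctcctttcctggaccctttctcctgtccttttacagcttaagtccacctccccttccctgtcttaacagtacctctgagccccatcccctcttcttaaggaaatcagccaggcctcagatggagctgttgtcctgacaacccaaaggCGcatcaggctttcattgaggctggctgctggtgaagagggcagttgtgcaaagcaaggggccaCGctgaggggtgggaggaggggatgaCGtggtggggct
CG is the pair of letters at which most mammalian methylation occurs and reads the same on both strands. The Negr1 sequence holds 19 of them, the first Lsamp start 12 and the second 3. Of 32841 RefSeq upstream sequences of the same 250 bases, 19.7% hold at least 19, 33.5% at least 12 and 71.0% at least 3, and the median is 6. Upstream sequences whose start lay within 1 kb of a blood week 8 window, 2379 in number, had a median of 17 (quartiles 11 and 23), so Negr1 was near the middle of these. Among the other members the count was 13 at Iglon5, 8 at Opcml, and 14 and 2 at the Ntm starts of the promoter table. No window lay within 1 kb of these starts, and neither Ntm start is at the 5′ end of the gene body. These counts describe the letters only and give no methylation level.

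Ntm and Opcml are neighbours on chromosome 9, 69.3 kb apart with their 3′ ends facing each other, and they held the only hippocampal windows of the family. Opcml, an opioid-binding cell adhesion molecule that is also studied as a tumour suppressor, had 1 window at week 3 (gene body 27790716 to 28925410, plus strand). The authors' deposited table gives it 11.8 points at chr9:28281001-28282000, higher in App-NLGF hippocampus (adjusted p = 0.0922), 490.2 kb into the gene. This was the weakest adjusted p of the family and ranked 929th of 1024 by p in its list. Ntm, neurotrimin, which promotes neurite outgrowth and adhesion, had 1 window in each tissue at week 8 (gene body 28994749 to 29963269, minus strand). In hippocampus the authors' deposited table gives 13.1 points at chr9:29038001-29039000 (adjusted p = 0.0263), at 95.5% of the gene's length and overlapping the long noncoding RNA gene Gm15520. In blood the authors' deposited table gives -10.4 points at chr9:29817001-29818000 (adjusted p = 0.0403), at 15.1% of the gene's length. The 2 Ntm windows thus had opposite signs in the 2 tissues at the same age and lay 778 kb apart, so they do not compare the same site. Neither was near a start of Ntm in the RefSeq promoter table, since the nearest lay 374.2 kb from the hippocampus window and 404.05 kb from the blood window. Those Ntm starts lie 550.6 and 549.8 kb from the 5′ end of the gene body, and the blood window lay 145.8 kb from that end.

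Iglon5, whose protein is the target of autoantibodies in a human sleep disorder with tau deposits, had no window. Its grid with 10 kb on each side holds 39 positions of 1 kb, against 776 to 2218 for the other members. The nearest called window outside lay 56.8 kb away, in blood week 24, at 11.1 points in the authors' deposited table (adjusted p = 0.0774). For the other members the nearest called window beyond 10 kb lay 113 to 537 kb away, and all 11 windows of the family lay inside gene bodies. The window 113 kb from Opcml was itself a family window, that of Ntm in hippocampus week 8. Just inside the authors' threshold on size stood the Negr1 start at -10.3 points and the Ntm window in blood at -10.4 points in the authors' deposited table.

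No window position of the family was called in more than 1 list, that is, at a second age or in both tissues. A position without a second call may still have differed there below a threshold. Repeated calls were rare in the whole table as well, with 18 of 8942 positions (0.201%) called in more than 1 list. Counted by tissue, 9 family windows were from blood, 3 higher and 6 lower in App-NLGF, and 2 from hippocampus, both higher. Blood week 8 alone gave 6 of the 11 windows and 5 of the 6 lower ones. Without that list the family had 5 windows, 4 higher and 1 lower. The absolute difference of the 11 windows ranged from 10.3 to 30.2 points with a median of 13.8, and the list medians over all called windows ran from 11.7 to 14.9. All 6 family windows of blood week 8 had an adjusted p above the median of that list, 0.0189, the smallest being 0.0266 at Lsamp in the authors' deposited table.

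**Figure D2:**
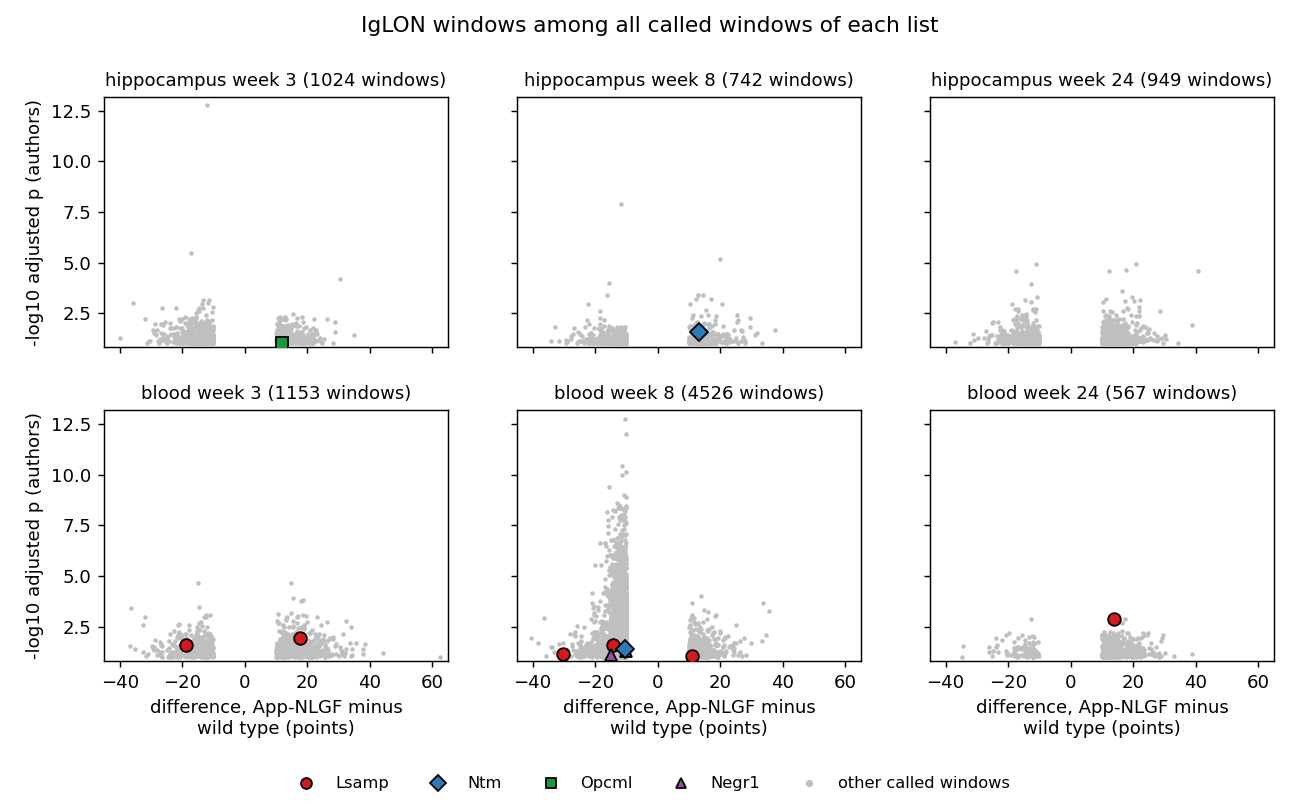
Family windows among all called windows of the 6 lists. The horizontal axis is the methylation difference in percentage points, App-NLGF minus wild type, and the vertical axis is -log10 of the authors' adjusted p. Each grey point is a called window, and coloured symbols are windows of Lsamp, Ntm, Opcml and Negr1. The Lsamp window stands at the top of blood week 24, and the 6 family windows of blood week 8 lie near the base of the axis, 5 of them below 0, where the Ntm symbol covers that of the Negr1 start.

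Beside all windows tested, the family had fewer called windows than the rate of its list gives in each of the 6 lists. Most of these counts are too small to show a shortage, as with 1 window beside 1.27 in blood week 24. Hippocampus lists held 1 family window for week 3, 1 for week 8 and none for week 24. The share of all tested windows that was called there was 0.044% at week 3, 0.0318% at week 8 and 0.0408% at week 24. Applied to the 5179 grid positions of the 5 genes, these shares correspond to 2.28, 1.65 and 2.11 windows. The blood lists held 2 family windows for week 3, 6 for week 8 and 1 for week 24, with called shares over all tested windows of 0.0495%, 0.196% and 0.0244%, which correspond to 2.57, 10.2 and 1.27 windows. Summed over the lists, 11 family windows stood beside 20.05 at these rates, or 2.12 per Mb beside 3.87 per Mb. For Lsamp alone 6 windows stood beside 8.59, of which the blood lists gave 6 beside 5.998 and the hippocampus lists none beside 2.59. The family's grid positions were counted whether or not the authors could test them. The numbers at the list rates may therefore be too high and the family's windows per Mb too low.

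**Figure D3:**
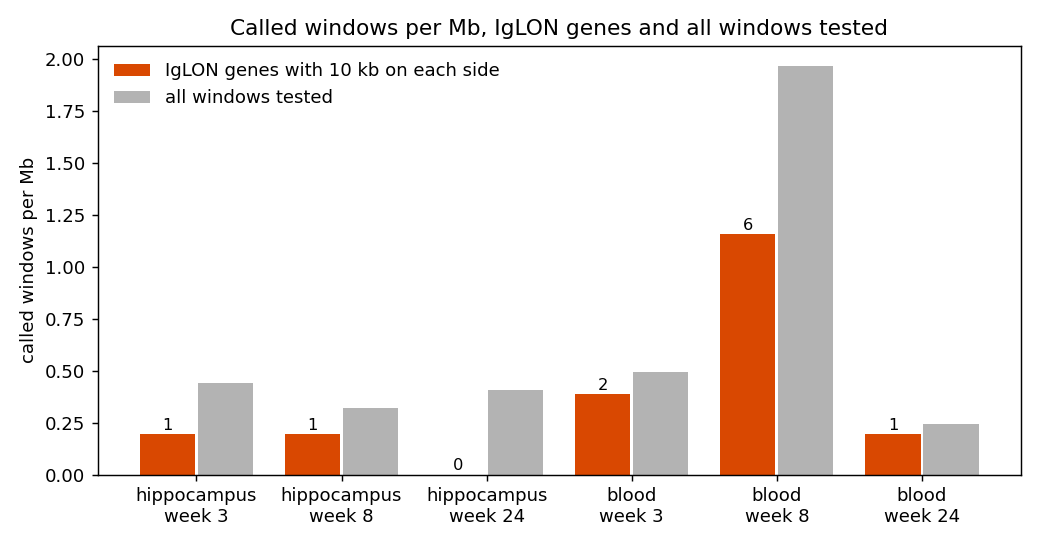
Called windows per Mb in each list. Orange bars give the 5 IgLON genes with 10 kb on each side, with the number of windows above each bar, and grey bars give all windows tested in that list. The family bar is the lower of the pair in every list, and both are highest in blood week 8. Few windows stand behind each family bar, so most of these gaps cannot show a shortage.

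The signs of the family windows are given beside those of their lists. In blood week 8, 5 of 6 family windows were lower, where 88.9% of all called windows were lower. In hippocampus week 3 the 1 family window, in Opcml, was higher, where 29.5% of called windows were higher. The Ntm window of hippocampus week 8 was also higher, in a list with 54.6% higher, and the Lsamp window of blood week 24 was higher in a list with 82.5% higher. Blood week 3, with 63.2% higher, had 1 Lsamp window on each side. With 1 or 2 windows per list, these signs say little about a balance.

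By gene, the members with a window were the 4 long ones. Any of the 6 lists held a window for 4 of the 5 members, where 26.7% of 21631 coding genes and 87.7% of the 227 coding genes of at least 500 kb had one. In hippocampus week 3, 1 member, Opcml, had a window, against 2.6% of coding genes and 28.6% of long ones. In hippocampus week 8, 1 member, Ntm, had a window, against 1.74% and 22%, and in hippocampus week 24 no member did, against 2.43% and 26%. In blood week 3 Lsamp alone had windows, against 2.79% of coding genes and 32.6% of long ones. In blood week 8 Lsamp, Ntm and Negr1 had windows, against 19.5% and 54.6%, and in blood week 24 Lsamp alone, against 1.25% and 17.2%. Among the 227 long genes the median was 2.67 windows per Mb (quartiles 1.47 and 4.03). Lsamp had 2.71 windows per Mb, and 111 of these genes had more. Negr1 had 2.58, Ntm 2.02 and Opcml 0.865 windows per Mb, with 117, 132 and 194 long genes above them.

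**Figure D4:**
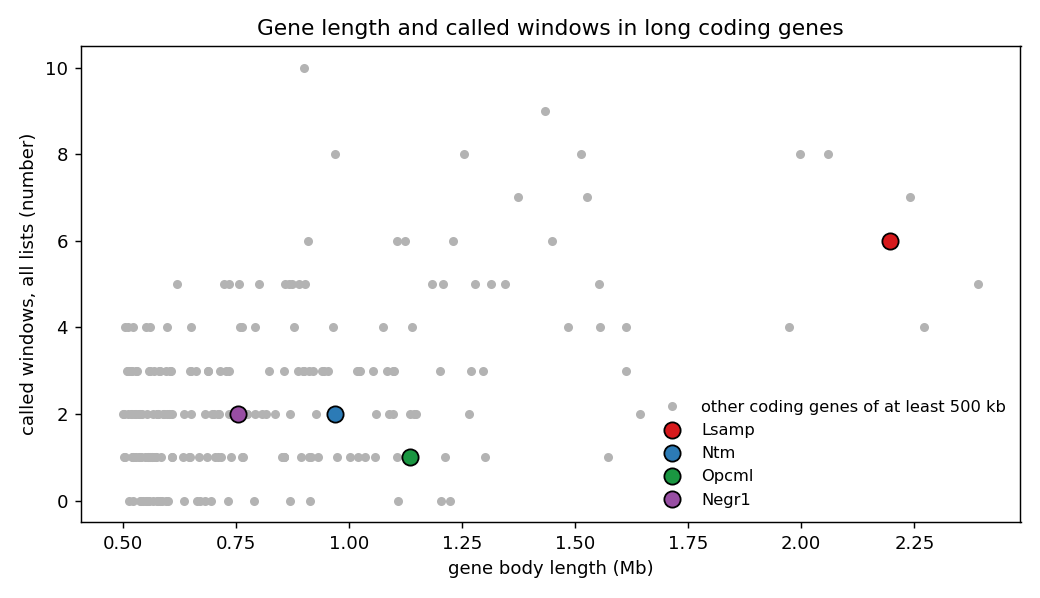
Called windows and gene length in coding genes of at least 500 kb. The horizontal axis is the length of the gene body in Mb and the vertical axis the number of called windows over all 6 lists, and each point is a gene. Lsamp, with 6 windows, is among the longest genes, and Opcml has 1 window. The highest count among the 227 genes is 10.

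Of all coding genes, 3 came nearest to the pattern of Lsamp when windows were counted by list and sign, which gives 12 counts per gene. These were Nrxn3, a presynaptic neurexin gene of 1612 kb, Erbb4, a neuregulin receptor gene of 1077 kb, and Mdga2, a synaptic immunoglobulin adhesion gene of 763 kb. The 12 counts of each differed from those of Lsamp by 2 in sum, and each had 4 windows, all in blood. Nrxn3 had 1 lower window at week 3, 2 lower at week 8 and 1 higher at week 24. Erbb4 and Mdga2 each had 1 higher window at week 3 and 1 higher and 2 lower at week 8. All 3 are long genes, and such likeness rests on very few windows.

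Other adhesion genes of neurons, a list of 36, hold mostly immunoglobulin-domain genes such as contactins, Ncam, Dscam and Cadm genes. The list also holds Cntnap2, a neurexin-like partner of contactin without immunoglobulin domains, which had more windows than any other gene of the list, 7 of 52, with 3 higher and 4 lower in App-NLGF. Of the 36 genes 22 (61.1%) had a window in any of the 6 lists, against 26.7% of all coding genes, and 8 of the 36 are at least 500 kb long, a size at which 87.7% of coding genes had one. The 52 windows, 15 higher and 37 lower, came to 3.8 per Mb, against 3.87 per Mb over all windows tested.

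Hippocampus gave windows in 5 of the 36 genes (13.9%) at week 3, in 1 (2.78%) at week 8 and in 4 (11.1%) at week 24, against 2.6%, 1.74% and 2.43% of all coding genes. Of coding genes of at least 500 kb, a length that 8 of the 36 reach, 28.6%, 22% and 26% had one. At week 3, 3 windows were higher and 4 lower, at week 8 the 1 window was lower, and at week 24, 2 were higher and 3 lower. By absolute difference, the leading genes of week 3 in the authors' deposited table were Cntnap2 at 24.1 points, Ncam2, a neural cell adhesion molecule, at 20.6 points and Cntn4, a contactin, at -16.6 points. Cntnap2 stood at -12.3 points at week 8 in the authors' deposited table, at another position. For week 24 the authors' deposited table gives -23.5 points at Cadm2, a synaptic cell adhesion molecule, -21.8 points at Dscaml1, a Dscam relative, and 14.98 points at Cntn5, another contactin. Both directions were thus present among the leading genes of weeks 3 and 24. The windows of Ncam2 (chr16:81324001-81325000) and Cadm2 (chr16:67174001-67175000) lie on chromosome 16 between Lsamp and App. A part played by closeness to the altered App gene was not tested.

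Blood gave windows in 6 of the 36 genes (16.7%) at week 3, in 20 (55.6%) at week 8 and in 4 (11.1%) at week 24, against 2.79%, 19.5% and 1.25% of all coding genes. The shares among coding genes of at least 500 kb were 32.6%, 54.6% and 17.2%. At week 3, 5 windows were higher and 1 lower, in a list with 63.2% higher, and at week 24, 3 were higher and 1 lower, in a list with 82.5% higher. At week 8, 2 were higher and 27 lower, in a list with 88.9% lower. The leading genes of week 3 in the authors' deposited table were Mdga2, whose protein binds neuroligins, at 26.2 points, Dscam, which acts in self-avoidance of neurites, at -24.4 points and Ncam2 at 18.1 points. For week 8 the authors' deposited table gives -21.7 points at Cntn6, -21.3 points at Dscam and -18.1 points at Mdga2, with Dscam and Mdga2 at other positions than at week 3. For week 24 the authors' deposited table gives 17.3 points at Cntn4, 12.7 points at Cadm2 and -11.9 points at Kirrel, a nephrin-like adhesion gene, and the Cntn4 window had the same adjusted p as the Lsamp window of that list. Dscam, Ncam2 and Cadm2 lie on chromosome 16 with App, and a part played by closeness to the altered gene was not tested. Contactins and Mdga proteins share with IgLONs the lipid anchor and the immunoglobulin domains.

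Of 3 genes linked to Negr1 function, the receptor genes Fgfr1 and Fgfr2 and the membrane protease gene Adam10, 1 had a window, where 26.7% of all coding genes had one in any list and 19.5% in blood week 8. Fgfr2 was lower in App-NLGF blood at week 8, at -12.4 points in the authors' deposited table (chr7:130265001-130266000, adjusted p = 0.00305), in a list with 88.9% of its windows lower.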

How the data were processed

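Whole-genome bisulfite libraries of hippocampus and blood were prepared by the authors with sonicated DNA, methylated adaptors and bisulfite conversion, per the labels' protocols, with a separate DNA extraction kit for each tissue. The submitters' processing notes name FastQC, Trim Galore, Bismark and methylKit and the build mm10, without versions. The deposited table holds, for each called window of 1 kb, a p-value, an adjusted p-value and a methylation difference in percentage points, all from the authors' comparison of genotypes with sex as a covariate. The statistical test, any coverage filter and the kind of adjustment were not given in the sources used here. Columns of values per library numbered 0, so depth is unknown.

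List names that begin with brain were read as hippocampus, and T3, T8 and T24 as weeks, as in the library names. Windows were assigned to genes of the RefSeq table of GRCm38.p6 on X and the autosomes with Python 3.11.15 and pandas 2.3.3. The number of windows tested per list was recovered by treating each adjusted p as a Benjamini-Hochberg value, which gives a rank for each window, and 78.1% to 89.9% of these ranks were whole within 0.02. That step and the assignment were tested on simulated data. Strand and starts came from the RefSeq promoter table, and exons, introns and window sequence were not used here. The members, the gene lists and the rules were chosen with earlier results of these data known. Named genes were all members, at most 3 genes per list by absolute difference from the other adhesion genes, and up to 3 coding genes nearest to a member with at least 3 windows. No test of this work was run. The 4 alternatives used gene bodies alone, an adjusted p under 0.01, differences of at least 15 points, or windows merged within 10 kb.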

Additional observations from a re-analysis of the deposited data

How the results depend on the processing

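Counting gene bodies alone, or merging windows of one list, sign and gene within 10 kb, left all 8 counts as they were. Among windows with an adjusted p under 0.01, the family kept 1 window of 11, the Lsamp window of blood week 24, and 0 lower windows, with 0 in hippocampus weeks 3 and 8 and 0 in blood weeks 3 and 8. Among windows of at least 15 points, 3 remained, all in Lsamp, of which 2 were lower, with 1 in blood week 8, 2 in blood week 3, and 0 in hippocampus weeks 3 and 8 and blood week 24. Over all called windows, the median adjusted p was above 0.01 in every list, from 0.0189 in blood week 8 to 0.0704 in hippocampus week 8. The median absolute difference was under 15 points in every list, from 11.7 to 14.9. Every list as a whole therefore also loses most of its windows under each cut. The share of each list that passes was not counted, so whether the family fell by more than its lists is not known. Without blood week 8, an alternative chosen after seeing the data, 5 windows remained, 1 of them lower. Leaving out libraries could not be done, and no paired analysis was possible because no values per library were used. The lists give no coverage, so a position absent from them may have differed by less, missed a threshold or been too thinly covered to test.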
